A study of Mus musculus with 7 samples.

Results

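The 31 genes described here encode the machinery with which a cell takes up glucose and breaks it down, and they were found in the deposited table by their gene symbols. They comprise 2 glucose transporters, 3 hexokinases, 9 genes of the upper part of glycolysis, 6 of the lower part, 4 genes that form or carry lactate, 3 that control the entry of pyruvate into mitochondria and 4 of the pentose phosphate pathway. All 31 were listed among 40743 genes, and all 31 were among the 17496 genes with a level of 1 CPM (read count scaled to the same total in every library) or more in 3 libraries or more, which were the genes tested. The lowest number of reads behind any of their values was 74.

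Glycolysis converts glucose to pyruvate in the cytosol, and the steps by hexokinase and phosphofructokinase are among its classical points of control. Pyruvate is either reduced to lactate, which leaves the cell through monocarboxylate transporters, or enters mitochondria through the pyruvate dehydrogenase complex, which pyruvate dehydrogenase kinases switch off. The pentose phosphate pathway branches off after the hexokinase step and yields NADPH. In microglia, the resident macrophages of the retina, activation by inflammatory stimuli is known to raise glucose uptake and lactate production, and in the retina the photoreceptors are themselves known for a high rate of glycolysis.

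The 7 libraries came from retinal microglia (rMG) of mice with the genotype Irf8-/- Cx3cr1GFP/+, in which the transcription factor gene Irf8 is knocked out and a GFP reporter replaces 1 allele of Cx3cr1. Unlasered mice gave 3 libraries, and mice 7 days after laser injury, the model of choroidal neovascularisation (CNV), gave 4. Both groups carry the Irf8 knockout and the reporter, so the comparison shows laser injury within this genotype, and controls with intact Irf8 were not analysed here. Each library held cells pooled from 3 to 4 mice, on average 10000 cells sorted as CD45low CD11b+ GFP+ and negative for Ly6C and Ly6G. For lasered mice, the central 70% of the retina was used, whereas this is not stated for unlasered mice, so that laser injury and the part of the retina cannot be told apart. The mice were adult and bred on a C57BL/6J background, and their age in weeks is not given for these libraries in the sources used here. In bulk samples such as these, fewer cells of a type and less RNA per cell cannot be told apart, and p-values measure the spread between libraries.

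Total reads were between 20427558 and 36022954 in unlasered and between 37133297 and 45919042 in lasered libraries, and 3 reads, the floor for counting error, corresponded to 0.0653 to 0.147 CPM. The targeted gene, Irf8, had 529.9, 489 and 507 CPM in unlasered libraries 1, 2 and 3 and 463, 465, 475 and 582 CPM in lasered libraries 1 to 4. These reads were all listed jointly with the overlapping gene Gm20388, so the libraries are named by their label, Irf8 KO. The microglia markers summed to 31876 to 37597 CPM in the unlasered and 31193 to 39126 CPM in the lasered libraries, and 0 of 14 passed the test. Rod photoreceptor markers, 15 genes with Sag and Gnat1 among them, took 1999, 15239 and 4237 CPM in unlasered libraries 1, 2 and 3 and 1019.9, 636, 867 and 493 CPM in lasered libraries 1 to 4 as a sum, and 13 of 15 were lower after laser injury (limma, adjusted p under 0.05), 10 of 15 without unlasered library 2. In unlasered library 2, the rod markers were therefore far above those of every other library, and results that rest on this library are also given without it.

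None of the 31 genes was called after laser injury by limma on log2(CPM + 1) with an adjusted p under 0.05, where 6.93% of all tested genes were called, 676 higher (3.86%) and 537 lower (3.07%). The smallest adjusted p among the 31 genes was 0.0823 by limma, for Hk1. At an unadjusted p under 0.05, 7 of the 31 genes passed limma's test, 6 with lower and 1 with higher values after laser injury, and 22.7% of all tested genes did (11.6% lower and 11.0% higher). On recovered reads, edgeR called 1 of the 31 genes lower, Hk1, where it called 3.45% of all genes lower and 7.24% in either direction. DESeq2 called 3 lower, Hk1, Aldoc and Slc16a1, where it called 6.52% of all genes lower and 13.2% in either direction. The values of the 2 groups did not overlap for 5 of the 31 genes (Hk1, Pfkp, Aldoc and Eno2 lower, Ldhb higher), compared with 21.0% of all tested genes (10.7% lower and 10.4% higher). For Hk1, unlasered library 1 (41.121 CPM) and lasered library 1 (41.099 CPM) were closer than the floor of 3 reads, so these values were tied within counting error.

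The 31 genes together took 3111, 5080.4 and 3400.2 CPM in unlasered libraries 1, 2 and 3 and 3434, 3567, 3438 and 3406 CPM in lasered libraries 1 to 4. Unlasered library 2 stood above the other 6 libraries, which lay close together. It had the highest value of all 7 libraries for 17 of the 31 genes, compared with 18.9% of all tested genes, and for 16 of them it reached at least 1.5 times the mean of unlasered libraries 1 and 3, compared with 10.5% of all tested genes. The genes with their highest value there were unevenly spread over the steps: all 6 of lower glycolysis, 6 of 9 of upper glycolysis, 2 of 3 hexokinases, 2 of 4 lactate genes and 1 of 2 glucose transporters, but 0 of 3 genes of pyruvate dehydrogenase control and 0 of 4 of the pentose phosphate pathway. These counts describe 1 library. Its rod markers were the highest of the 7 libraries as well, and the part of rod RNA in these values was not tested.

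**Figure D1:**
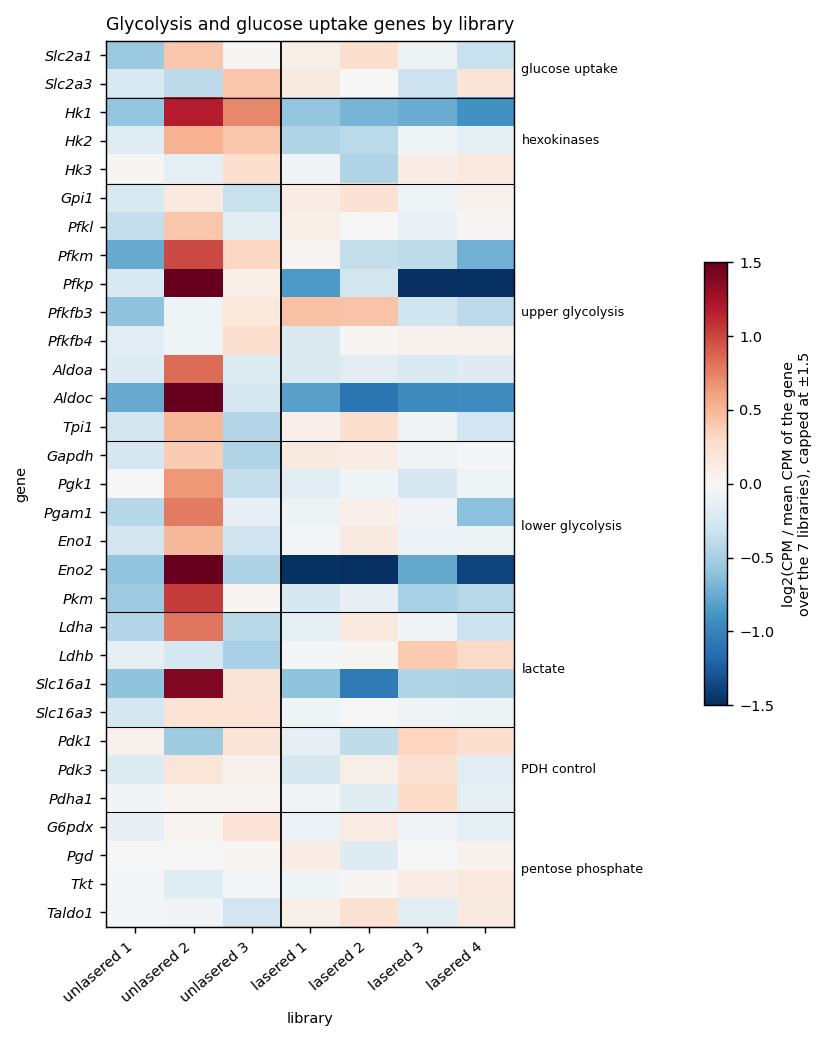
Heat map of the 31 genes (rows, by step) in the 7 libraries (columns). Colour gives the log2 ratio of CPM to the gene's mean over the 7 libraries, capped at 1.5 in either direction. The column of unlasered library 2 is red for all 6 genes of lower glycolysis and close to white for the pentose phosphate genes.

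Across all 7 libraries, the median log2 fold change was -0.03 for the 31 genes and -0.01 for all tested genes, with 12 of the 31 above 0 and 19 below. Most estimates were small: 21 of the 31 genes changed by less than 0.25 on the log2 scale in either direction, and for 24 of them the 95% interval lay within -1 to 1. The intervals of Hk1, Pfkm, Pfkp, Aldoc, Eno2, Pkm and Slc16a1 reached beyond. Trimmed mean of M-values (TMM) scaling moved the median of all genes up by 0.11, and 8 of the 31 genes with values close to 0 (G6pdx, Hk3, Ldha, Pdha1, Pdk3, Pfkfb4, Pgd and Slc16a3) then changed sign, so that 20 lay above 0 and 11 below. Under that scaling 69.1% of all called genes were higher after laser injury, compared with 55.7% as deposited. No sign is therefore read from these 8 genes.

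**Figure D2:**
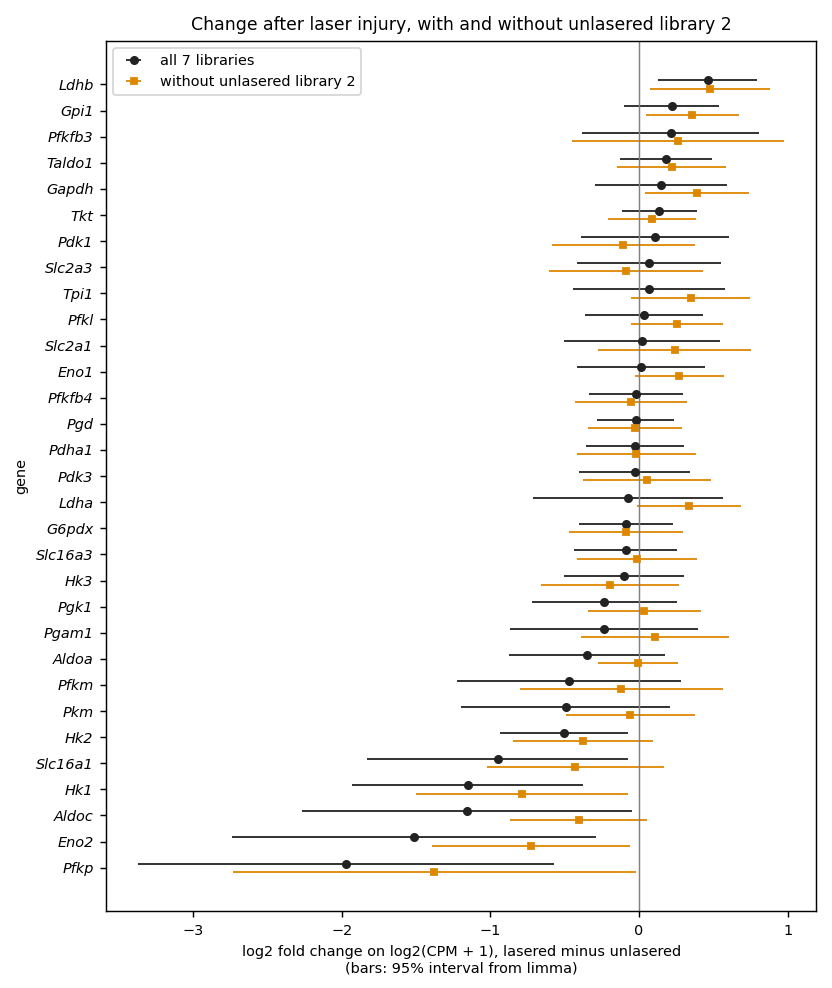
Log2 fold change on log2(CPM + 1), lasered minus unlasered (horizontal axis), for each of the 31 genes (vertical axis). Black points use all 7 libraries, orange squares leave out unlasered library 2, and bars are 95% intervals from limma. Intervals are widest for Pfkp, Eno2 and Aldoc, and the estimates for these genes lie closer to 0 without unlasered library 2.

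Glucose enters microglia through facilitative transporters, of which Slc2a1 (GLUT1) and Slc2a3 (GLUT3) were members. Slc2a1 (ENSMUSG00000028645, chr4:119108711-119137983, GRCm38) had 17.9, 34.9 and 26.6 CPM in unlasered libraries 1, 2 and 3 and 27.9, 31.2, 24.9 and 20.9 CPM in lasered libraries 1 to 4. Slc2a3 (ENSMUSG00000003153, chr6:122727809-122801640) had 27.7, 24.6 and 43.2 CPM without laser and 35.6, 32.4, 26.1 and 37.002 CPM after laser injury. Neither gene separated the groups, and the highest value was in unlasered library 2 for Slc2a1 and in unlasered library 3 for Slc2a3. The log2 fold changes were 0.02 ± 0.23 (SE) for Slc2a1 and 0.07 ± 0.21 for Slc2a3, with adjusted p of 0.968 and 0.886 by limma. Per kilobase of exon, Slc2a1 made up 62.6% ± 10.4 (SD, n = 3) of the pair without laser and 62.2% ± 5.93 (SD, n = 4) after laser injury.

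The hexokinases trap glucose in the cell by phosphorylation. Hk1 (ENSMUSG00000037012, chr10:62268855-62379908), the widely expressed form, had 41.1, 138 and 101 CPM in unlasered libraries 1, 2 and 3 and 41.1, 37.9, 36.5 and 32.7 CPM in lasered libraries 1 to 4. All 4 lasered values were at or below that of unlasered library 1, and unlasered libraries 2 and 3 were far above it, so that the unlasered group itself spanned a wider range than the distance between the groups. The mean was 93.5 ± 48.99 CPM (SD, n = 3) without laser and 37.03 ± 3.498 CPM (SD, n = 4) after laser injury, a log2 fold change of -1.15 ± 0.34 (SE, 95% interval -1.93 to -0.38) with an adjusted p of 0.0823 by limma. Hk1 was called by edgeR (-1.33, adjusted p = 0.0439) and by DESeq2 (-1.33, adjusted p = 0.000968). The call turned on the unlasered libraries: without unlasered library 1 the log2 fold change was -1.65 and was called by limma (adjusted p = 0.00821), and without unlasered library 2 it was -0.79 and was not (adjusted p = 0.211 by limma).

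Hk2 (ENSMUSG00000000628, chr6:82725025-82774454), the form that is induced in many activated cells, had 68.6, 111 and 104 CPM without laser and 56.9, 58.7, 74.3 and 70.9 CPM after laser injury. Lasered libraries 3 and 4 lay above unlasered library 1, so the groups overlapped. Its log2 fold change was -0.51 ± 0.19 (adjusted p = 0.151 by limma). Among the settings tried, Hk2 was called only without unlasered library 1 (-0.72, limma, adjusted p = 0.0493). Hk3 (ENSMUSG00000025877, chr13:55005985-55021385), the form typical of myeloid cells, had 55.4, 49.6 and 65.3 CPM in the unlasered and 52.5, 39.9, 59.3 and 60.8 CPM in the lasered libraries. Its groups overlapped over nearly their whole ranges, with a log2 fold change of -0.10 ± 0.18 (adjusted p = 0.782 by limma).

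On the scale of CPM per kilobase of exon, Hk3 took 37.9% ± 10.1 (SD, n = 3) of the 3 hexokinases without laser and 48.3% ± 3.55 (SD, n = 4) after laser injury, Hk2 37.4% ± 1.03 (SD, n = 3) and 36.8% ± 2.51 (SD, n = 4), and Hk1 24.7% ± 9.101 (SD, n = 3) and 14.9% ± 2.84 (SD, n = 4). The Hk1 share in single libraries was 15.4, 33.5 and 25.2 % in unlasered libraries 1, 2 and 3 and 16.8, 17.7, 13.02 and 11.9 % in lasered libraries 1 to 4. The share of Hk2 was nearly the same in all 7 libraries, while those of Hk1 and Hk3 moved against each other, most of all in unlasered library 2. Not divided by exonic length, the mean share was largest for Hk2, with 39.0% without laser and 41.9% after laser injury. Hk3 then had 24.8% and 34.0%, so the order of these genes depends on the scale. With 3 against 4 libraries, the smallest p of a two-sided exact permutation test, taken as double the smaller tail, is 0.0571, so the shares are given as a description.

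In upper glycolysis, glucose 6-phosphate is rearranged by Gpi1 and phosphorylated again by phosphofructokinase (PFK). Gpi1 (ENSMUSG00000036427, chr7:34201330-34230336) had 157, 202 and 146 CPM in unlasered libraries 1, 2 and 3 and 198, 213, 176 and 189.9 CPM in lasered libraries 1 to 4. Only unlasered library 2 reached the lasered values, and the log2 fold change was 0.22 ± 0.14 (adjusted p = 0.409 by limma). Without that library it was 0.36, again not called (adjusted p = 0.196).

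PFK is encoded by Pfkl (liver type), Pfkm (muscle type) and Pfkp (platelet type). Pfkl (ENSMUSG00000020277, chr10:77986947-78010083) had 145, 247 and 166 CPM without laser and 198, 184, 172 and 187 CPM after laser injury, with the lasered libraries inside the range of the unlasered ones. Its log2 fold change was 0.03 ± 0.18 (adjusted p = 0.935 by limma), and 0.26 without unlasered library 2, not called (adjusted p = 0.359 by limma). Pfkm (ENSMUSG00000033065, chr15:98092589-98132451), whose row includes reads listed jointly with an overlapping gene, had 3.62, 12.2 and 7.61 CPM in the unlasered and 6.299, 4.77, 4.73 and 3.72 CPM in the lasered libraries. These are low levels, and the log2 fold change was -0.47 ± 0.33 (adjusted p = 0.449 by limma).

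Pfkp (ENSMUSG00000021196, chr13:6579768-6648777) showed the largest log2 fold change of the 31 genes by limma over all 7 libraries. It had 27.1, 107 and 33.95 CPM in unlasered libraries 1, 2 and 3 and 17.5, 26.3, 7.16 and 4.15 CPM in lasered libraries 1 to 4. The groups did not overlap, but lasered library 2 came close to unlasered library 1, and the lasered values themselves were spread widely. The mean was 55.96 ± 44.2 CPM (SD, n = 3) without laser and 13.8 ± 10.1 CPM (SD, n = 4) after laser injury, with a log2 fold change of -1.97 ± 0.62 (95% interval -3.37 to -0.57) and an adjusted p of 0.0953 by limma. Without unlasered library 2 it was -1.38 (adjusted p = 0.254 by limma), and neither edgeR (adjusted p = 0.110) nor DESeq2 (adjusted p = 0.0880) called it.

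Pfkl made up most of the PFK messages per kilobase in every library, 87.5, 76.1 and 83.8 % in unlasered libraries 1, 2 and 3 and 90.3, 89.1, 92.95 and 95.2 % in lasered libraries 1 to 4. The group means were 82.4% ± 5.81 (SD, n = 3) without laser and 91.9% ± 2.74 (SD, n = 4) after laser injury, and the groups did not overlap. The Pfkp share was 11.04% ± 4.66 (SD, n = 3) and 3.32% ± 2.35 (SD, n = 4), and the Pfkm share 6.52% ± 1.86 (SD, n = 3) and 4.81% ± 0.833 (SD, n = 4). The liver type was thus the main PFK gene with and without laser injury.

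Pfkfb3 and Pfkfb4 encode the bifunctional enzymes that make and remove fructose 2,6-bisphosphate, the activator of PFK. Pfkfb3 (ENSMUSG00000026773, chr2:11471433-11554077), the form linked to strong kinase activity, had 21.5, 31.3 and 36.4 CPM without laser and 44.6, 43.99, 26.6 and 24.96 CPM after laser injury. Lasered libraries 1 and 2 had the highest values and lasered libraries 3 and 4 lay among the unlasered ones. Pfkfb4 (ENSMUSG00000025648, chr9:108991778-109032228) had 135, 144 and 178 CPM in the unlasered and 129.6, 153, 158 and 158 CPM in the lasered libraries, again with overlap. The log2 fold changes were 0.21 ± 0.26 for Pfkfb3 and -0.02 ± 0.14 for Pfkfb4 (adjusted p = 0.693 and 0.951 by limma). Pfkfb4 took 88.9% ± 1.56 (SD, n = 3) of the pair per kilobase without laser and 86.8% ± 4.38 (SD, n = 4) after laser injury.

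Aldolase splits the 6-carbon sugar into trioses. Aldoa (ENSMUSG00000030695, chr7:126795234-126800751), the main form outside liver and brain, had 372, 760.5 and 371 CPM in unlasered libraries 1, 2 and 3 and 368, 377, 362 and 371 CPM in lasered libraries 1 to 4. Apart from unlasered library 2, all libraries lay between 362 and 377 CPM. Its log2 fold change was -0.35 ± 0.23 (adjusted p = 0.419 by limma) with all libraries and -0.01 without unlasered library 2. The Aldoa row joins 2 gene identifiers and an antisense entry, so its level is not compared with those of other genes except as a share. Aldoc (ENSMUSG00000017390, chr11:78322968-78327781), the form of brain and retina, had 13.3, 78.6 and 18.6 CPM without laser and 12.7, 10.5, 11.5 and 11.8 CPM after laser injury. Unlasered library 2 exceeded the mean of unlasered libraries 1 and 3 by a factor of 4.93, and lasered library 1 was just below unlasered library 1. The log2 fold change was -1.16 ± 0.49 (adjusted p = 0.202 by limma) and -0.41 without unlasered library 2 (adjusted p = 0.325 by limma), and DESeq2 on all libraries gave -1.66 (adjusted p = 0.00784). Aldoa made up 93.4% ± 3.47 (SD, n = 3) of the pair per kilobase without laser and 96.5% ± 0.289 (SD, n = 4) after laser injury.

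Tpi1 (ENSMUSG00000023456, chr6:124810586-124814296), the triosephosphate isomerase, closes the upper part. It had 113 ± 41.6 CPM (SD, n = 3) without laser and 115 ± 17.99 CPM (SD, n = 4) after laser injury, and unlasered library 2, with 161 CPM, was the highest of the 7. With all libraries, the log2 fold change of Tpi1 was 0.07 ± 0.23 (adjusted p = 0.901 by limma). It was 0.35 without unlasered library 2, not called (adjusted p = 0.338 by limma).

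Lower glycolysis returns the energy as ATP. Gapdh (ENSMUSG00000057666, chr6:125161715-125166467), often used as a reference gene, had 42.1, 65.7 and 36.7 CPM in unlasered libraries 1, 2 and 3 and 55.1, 54.4, 48.6 and 49.6 CPM in lasered libraries 1 to 4. Its lasered values lay between unlasered library 1 and unlasered library 2, with a log2 fold change of 0.15 ± 0.20 (adjusted p = 0.712 by limma). The next enzymes, Pgk1 (ENSMUSG00000062070, chrX:106187100-106203699) and Pgam1 (ENSMUSG00000011752, chr19:41911923-41918660), had log2 fold changes of -0.23 ± 0.22 and -0.24 ± 0.28 (adjusted p = 0.579 and 0.674 by limma). Pgk1 had 52.2 ± 18.9 CPM (SD, n = 3) without laser and 42.5 ± 2.59 CPM (SD, n = 4) after laser injury, and Pgam1 74.1 ± 34.02 CPM (SD, n = 3) and 59.8 ± 11.6 CPM (SD, n = 4). For both, the unlasered SD was dominated by unlasered library 2, at 73.2 and 113 CPM, and without it both estimates were above 0 (0.04 and 0.11).

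These levels need a reservation, because genes of glycolysis have many processed pseudogenes, that is copies of spliced mRNA in the genome, and the table lists reads for them. By sequence, 154 annotated pseudogenes matched 12 of the 31 genes best (at least 90% identity over at least 200 bases), and 138 of them had a row of their own. For Gapdh, the 107 pseudogene rows together held 593, 1009.9 and 557 CPM in unlasered libraries 1, 2 and 3 and 811, 819, 747 and 731 CPM in lasered libraries 1 to 4. This was 14.1 to 15.4 times the Gapdh row itself, with 26 of the 107 rows at 10 CPM or more in mean. A single pseudogene, Gm10359 (chr5:105862701-105863702, - strand), is identical to the Gapdh transcript over 1002 bases and had 31.7 ± 11.2 CPM (SD, n = 3) without laser and 34.5 ± 1.78 CPM (SD, n = 4) after laser injury. The Gapdh row was therefore a minor share of the reads listed for Gapdh and its matching pseudogenes.

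bowtie2 does not split a read across introns, and a read over an exon junction can align whole to a pseudogene that carries the joined exons. The sequences below show 50 bases of the transcript around 1 coding exon junction of each of 4 genes. Capitals mark the 5 bases on either side of the junction, and each sequence is also present, base for base, in at least 1 pseudogene with a row in the table.
Gapdh, exons 3 and 4: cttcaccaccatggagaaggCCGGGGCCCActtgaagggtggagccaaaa
Pgk1, exons 1 and 2: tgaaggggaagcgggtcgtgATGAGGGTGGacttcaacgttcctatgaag
Gpi1, exons 1 and 2: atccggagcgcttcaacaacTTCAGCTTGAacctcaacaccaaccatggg
Ldhb, exons 3 and 4: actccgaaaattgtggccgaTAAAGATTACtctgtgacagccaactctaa
The Gapdh sequence occurred in 35 pseudogene rows, and such 50-base windows were found in a pseudogene for 4 of 4 coding junctions of Gapdh, 10 of 10 of Pgk1, 3 of 3 of Pgam1, 8 of 17 of Gpi1, 5 of 9 of Pkm, 2 of 6 of Ldhb and 1 each of Ldha, Pdha1 and Tpi1. The other members had none.

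The pseudogene reads of Gapdh, Gpi1, Pgam1, Pkm, Ldhb and Aldoa kept a similar ratio to the gene's own reads from library to library, and those of Pgk1 varied more. The ratio of the summed pseudogene rows to the gene's own row over the 7 libraries was 0.595 to 0.65995 for Gpi1, 0.516 to 0.629 for Pgam1, 0.289 to 0.334 for Pkm, 0.194 to 0.231 for Ldhb, 0.126 to 0.147 for Aldoa and 1.002 to 1.66 for Pgk1. None of the 105 pseudogene rows tested was called by limma. Adding the pseudogene rows to their genes moved the combined Gapdh level to 768 ± 267 CPM (SD, n = 3) without laser and 829 ± 47.6 CPM (SD, n = 4) after laser injury, and the log2 fold change to 0.16 from 0.15. The choice to add them was made after seeing the data, and it left the count of called members at 0 by limma. The log2 fold change moved most for Pgk1, to -0.31 from -0.23. How many of the pseudogene reads came from the genes themselves was not tested, and the levels of these 12 genes are therefore uncertain.

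**Figure D3:**
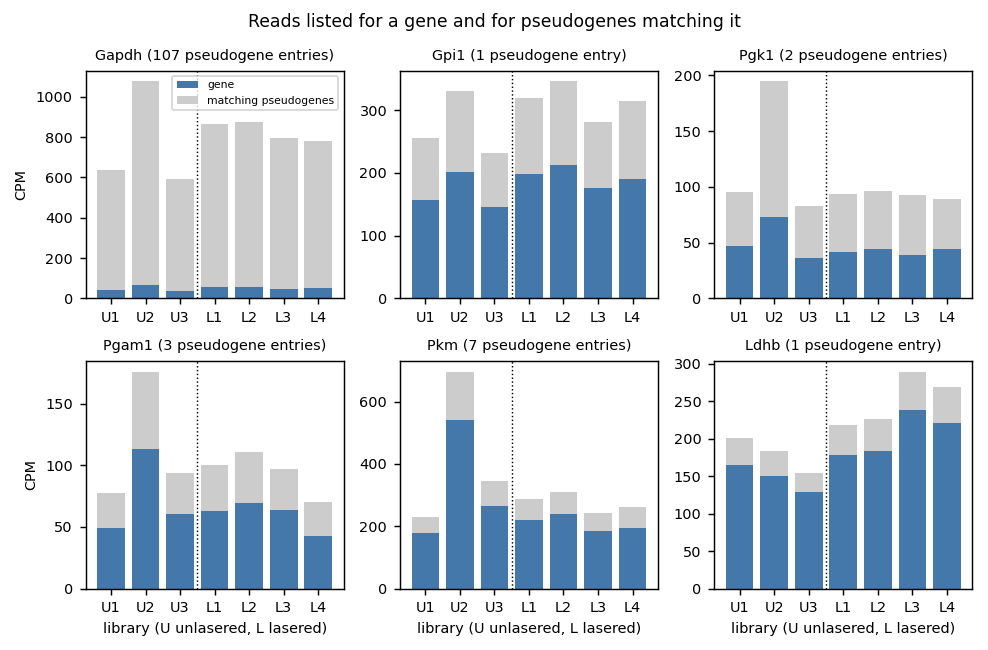
Reads in CPM (vertical axis) listed for a gene (blue) and for the pseudogenes that match it (grey, stacked) in each library, for 6 genes. U marks unlasered and L lasered libraries. Grey exceeds blue 14.1-fold or more for Gapdh in every library, and both parts are highest in U2 for Gapdh, Pgk1, Pgam1 and Pkm.

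Enolase is encoded by Eno1, the ubiquitous form, and Eno2, the neuronal form. Eno1 (ENSMUSG00000063524, chr4:150236721-150248879) had 284, 479.7 and 279 CPM without laser and 337, 378, 322 and 325 CPM after laser injury. The lasered libraries lay between unlasered libraries 1 and 2, with a log2 fold change of 0.02 ± 0.19 (adjusted p = 0.973 by limma). For Eno1 without unlasered library 2 it was 0.27, not called (adjusted p = 0.308 by limma). Eno2 (ENSMUSG00000004267, chr6:124760053-124769673) had 5.53, 33.8 and 6.05 CPM in unlasered libraries 1, 2 and 3 and 2.99, 1.87, 4.88 and 3.18 CPM in lasered libraries 1 to 4. The groups did not overlap, but lasered library 3 and unlasered library 1 were close, and unlasered library 2 was 5.83 times the mean of unlasered libraries 1 and 3, the largest such ratio of the 31 genes. Its log2 fold change was -1.51 ± 0.54 (adjusted p = 0.135 by limma) and -0.73 without unlasered library 2 (adjusted p = 0.218 by limma). Eno1 made up 95.98% ± 2.97 (SD, n = 3) of the pair per kilobase without laser and 98.9% ± 0.469 (SD, n = 4) after laser injury.

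Pkm (ENSMUSG00000032294, chr9:59656368-59679375), the pyruvate kinase that forms pyruvate and ATP, had 179, 539.8 and 265 CPM in the unlasered and 220.5, 239.5, 186 and 195 CPM in the lasered libraries. Unlasered library 2 was again far above the rest, and unlasered library 1 was the lowest of the 7. The log2 fold change was -0.49 ± 0.31 (adjusted p = 0.394 by limma) and -0.06 without unlasered library 2. The M1 and M2 forms of Pkm arise by splicing and cannot be told apart in a table of genes.

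Lactate dehydrogenase is built from the products of Ldha, the subunit that favours lactate formation, and Ldhb, which favours the reverse reaction. Ldha (ENSMUSG00000063229, chr7:46841475-46855627) had 213, 503 and 215 CPM without laser and 263, 319, 276 and 231 CPM after laser injury, with the lasered libraries between the low values of unlasered libraries 1 and 3 and the high value of library 2. Its log2 fold change was -0.07 ± 0.28 (adjusted p = 0.911 by limma), and 0.34 without unlasered library 2, also not called (adjusted p = 0.285). Ldhb (ENSMUSG00000030246, chr6:142490249-142507957) was the 1 member with higher values in every lasered than in every unlasered library. It had 165, 151 and 129 CPM in unlasered libraries 1, 2 and 3 and 179, 184, 238 and 221 CPM in lasered libraries 1 to 4. The mean was 148 ± 18.5 CPM (SD, n = 3) without laser and 205 ± 28.7 CPM (SD, n = 4) after laser injury, a log2 fold change of 0.46 ± 0.15 (95% interval 0.13 to 0.80) with an adjusted p of 0.0986 by limma. It did not depend on unlasered library 2 (0.48 without it), but no setting tried gave an adjusted p under 0.05, with values between 0.0583 and 0.309 over the alternatives (limma, edgeR and DESeq2). The matching pseudogene of Ldhb, Gm5514 (chr19:21937380-21938381, + strand), had 31.2 ± 5.53 CPM (SD, n = 3) without laser and 45.3 ± 5.42 CPM (SD, n = 4) after laser injury.

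Per kilobase, Ldhb made up 52.2% ± 12.1 (SD, n = 3) of the pair without laser and 61.3% ± 5.41 (SD, n = 4) after laser injury, and in single libraries 62.1, 38.8 and 55.7 % in unlasered libraries 1, 2 and 3 and 58.9, 54.9, 64.5 and 66.8 % in lasered libraries 1 to 4. Unlasered library 2 was the only library in which Ldha exceeded Ldhb on this scale. Not divided by exonic length, Ldha exceeded Ldhb in all 7 libraries, with 51.2% to 76.9% of the pair.

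Several genes of glycolysis are known targets of hypoxia-inducible factors, and the letters ACGTG are 1 form of the core of their binding sites. These letters, searched on both strands, were found in 19.6% of 32851 RefSeq promoters (250 bases before to 50 bases after the start, GRCm38.p6), and in 20 of 44 promoters of the 30 members with an entry, and 17 of these members had at least 1 such promoter. Slc2a3 had no entry. A promoter of each of the 2 lactate dehydrogenase genes is shown because these promoters differed in these letters. There were 5 matches in the Ldha promoter, where the palindrome CACGTG counts on both strands, and 0 in that of Ldhb. Ldha had 2 promoters with 5 matches in total, so the one not shown had 0. Capitals mark the matches.
Ldha promoter (chr7:46845554-46845853, + strand): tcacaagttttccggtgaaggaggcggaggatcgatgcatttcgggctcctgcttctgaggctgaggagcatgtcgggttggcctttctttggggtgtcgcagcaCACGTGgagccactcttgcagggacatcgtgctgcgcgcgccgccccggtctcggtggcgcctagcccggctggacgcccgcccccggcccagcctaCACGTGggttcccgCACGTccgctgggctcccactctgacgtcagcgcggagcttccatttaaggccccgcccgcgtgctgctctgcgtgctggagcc
Ldhb promoter (chr6:142507908-142508207, - strand): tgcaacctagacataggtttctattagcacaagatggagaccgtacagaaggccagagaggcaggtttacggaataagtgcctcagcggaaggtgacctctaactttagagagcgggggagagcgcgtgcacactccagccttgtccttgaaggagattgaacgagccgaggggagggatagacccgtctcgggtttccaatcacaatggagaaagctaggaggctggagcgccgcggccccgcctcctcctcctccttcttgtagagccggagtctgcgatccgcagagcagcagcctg
A match describes the letters and is no evidence of binding in these cells. Other forms of the core, such as GCGTG, which both printed promoters hold, were not searched. A lack of matches therefore does not mean that a site is absent.

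Lactate is carried by Slc16a1 (MCT1) and Slc16a3 (MCT4), the latter known as the exporter of glycolytic cells. Slc16a1 (ENSMUSG00000032902, chr3:104638668-104658462), whose row includes reads listed jointly with an overlapping gene, had 38.5, 153 and 66.8 CPM in unlasered libraries 1, 2 and 3 and 38.4, 28.02, 42.9 and 42.4 CPM in lasered libraries 1 to 4. Unlasered library 2 was 2.903 times the mean of the other unlasered libraries, and unlasered library 1 lay among the lasered values. The log2 fold change was -0.95 ± 0.39 (adjusted p = 0.187 by limma). It was called without unlasered library 1 (-1.41, limma, adjusted p = 0.0485) and by DESeq2 on all libraries (-1.17, adjusted p = 0.0205), but was -0.43 without unlasered library 2 (adjusted p = 0.436 by limma). Slc16a3 (ENSMUSG00000025161, chr11:120948480-120960868) had 26.97, 37.3 and 37.3 CPM without laser and 31.1, 32.6, 31.2 and 30.7 CPM after laser injury. It varied little, and the lasered libraries lay within the unlasered range, with a log2 fold change of -0.09 ± 0.15 (adjusted p = 0.779 by limma). The Slc16a1 share of the pair per kilobase was 71.5% ± 10.4 (SD, n = 3) without laser and 58.8% ± 5.46 (SD, n = 4) after laser injury. In single libraries it was 63.2, 83.1 and 68.2 % in unlasered libraries 1, 2 and 3 and 59.7, 50.8, 62.3 and 62.4 % in lasered libraries 1 to 4. The groups did not overlap, but unlasered library 1 was close to lasered libraries 3 and 4.

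**Figure D4:**
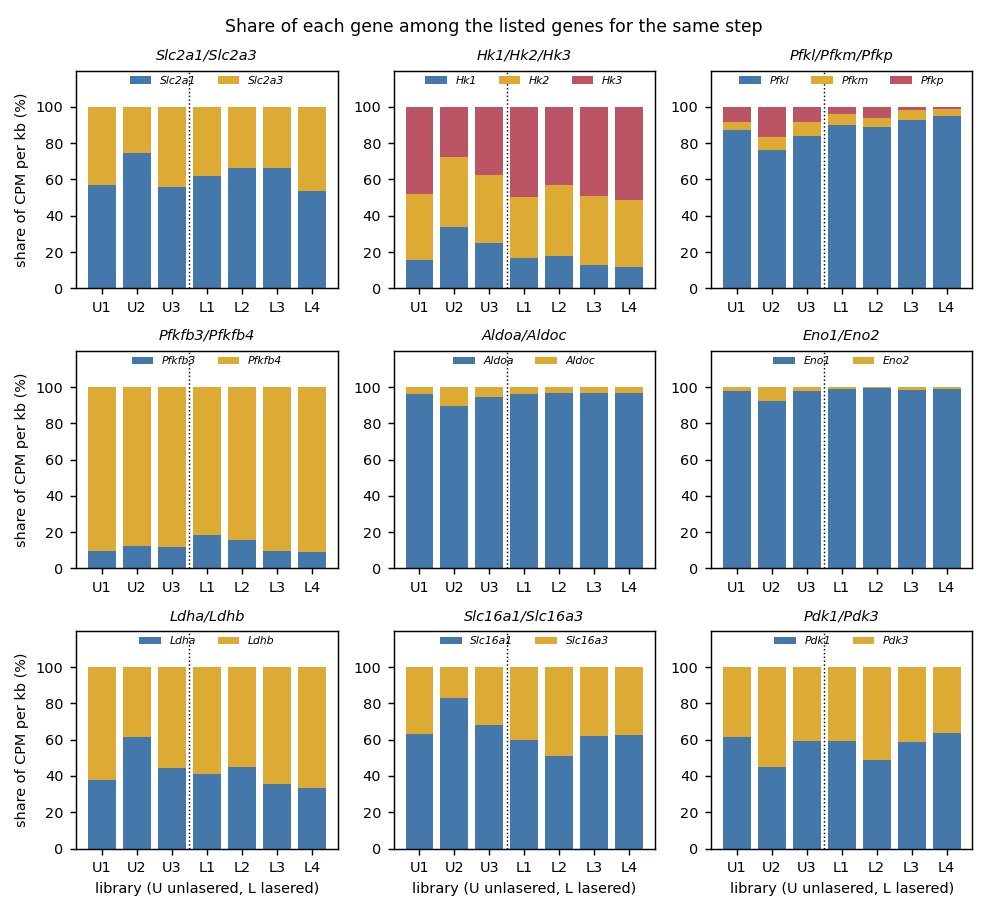
Share of each gene in the summed CPM per kilobase of exon of the listed genes for the same step (vertical axis, %), by library, for 9 families. U marks unlasered and L lasered libraries. Pfkl, Aldoa and Eno1 take most of their family in every library, and U2 differs most from the other libraries for Hk1, Aldoc, Eno2, Ldha and Slc16a1.

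Pyruvate dehydrogenase and its kinases showed no separation. Pdk1 (ENSMUSG00000006494, chr2:71873224-71903858), a kinase that shuts the complex under low oxygen, had 149, 98.97 and 163 CPM in unlasered libraries 1, 2 and 3 and 131, 109.5, 178 and 169.7 CPM in lasered libraries 1 to 4. Here unlasered library 2 was the lowest of the 7 libraries. Pdk3 (ENSMUSG00000035232, chrX:93764607-93832201) had 30.6, 39.95 and 36.4 CPM without laser and 29.8, 37.4, 41.2 and 31.5 CPM after laser injury, with its highest value in lasered library 3. The log2 fold changes were 0.11 ± 0.22 for Pdk1 and -0.03 ± 0.17 for Pdk3 (adjusted p = 0.816 and 0.937 by limma). Pdha1 (ENSMUSG00000031299, chrX:160122209-160138413), the catalytic subunit, had 61.8 ± 2.08 CPM (SD, n = 3) without laser and 61.1 ± 9.66 CPM (SD, n = 4) after laser injury, a log2 fold change of -0.03 ± 0.15 (adjusted p = 0.9299 by limma). Pdk1 made up 55.3% ± 9.07 (SD, n = 3) of the kinase pair per kilobase without laser and 57.7% ± 6.23 (SD, n = 4) after laser injury.

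The pentose phosphate genes varied little between libraries. G6pdx (ENSMUSG00000031400, chrX:74409483-74429194), the enzyme that commits glucose to this pathway, had 37.4, 41.9 and 46.998 CPM in the unlasered and 38.1, 44.1, 39.1 and 36.7 CPM in the lasered libraries. Pgd (ENSMUSG00000028961, chr4:149149991-149166771), the second source of NADPH, had 229 ± 2.45 CPM (SD, n = 3) without laser and 226 ± 20.1 CPM (SD, n = 4) after laser injury. Tkt (ENSMUSG00000021957, chr14:30548359-30574720), whose row includes joint reads, and Taldo1 (ENSMUSG00000025503, chr7:141392199-141402968) link the pathway back to glycolysis. Tkt had 173 ± 10.03 CPM (SD, n = 3) and 191 ± 12.5 CPM (SD, n = 4), and Taldo1 had 201, 197 and 165 CPM in unlasered libraries 1, 2 and 3 and 215, 238, 179 and 222 CPM in lasered libraries 1 to 4. The log2 fold changes of the 4 genes lay between -0.09 (G6pdx) and 0.18 (Taldo1), with 95% intervals of -0.40 to 0.23 and -0.13 to 0.49 for these, and the adjusted p lay between 0.479 and 0.929 by limma. In these genes unlasered library 2 was never the highest of the 7 libraries.

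Compared on the scale of CPM per kilobase of exon, the levels of the 31 genes spanned a wide range. After laser injury, Ldhb (131 ± 18.3 CPM per kilobase, SD, n = 4), Taldo1 (98.3 ± 11.4), Ldha (82.3 ± 10.9) and Eno1 (63.3 ± 4.802) had high levels, and Eno2 (0.686 ± 0.264), Pfkp (1.03 ± 0.756) and Pfkm (1.46 ± 0.319) the lowest. The genes named as high all have matching pseudogenes, so their levels are uncertain, and Aldoa, whose row joins several entries, is left out. Each level is that of the gene's own row. The Gapdh row had 12.6 ± 0.803 CPM per kilobase (SD, n = 4) after laser injury, but its pseudogene rows held 14.1 to 15.4 times its reads. The place of Gapdh among the 31 genes is therefore not given. In unlasered libraries Ldhb (94.5 ± 11.8, n = 3) and Ldha (93.7 ± 50.4) did not differ beyond their spread, and Taldo1 (86.5 ± 8.95) lay within the spread of Ldha. Over all 7 libraries, 9 of the 31 genes had a highest value under 1.5 times their lowest, and without unlasered library 2 this held for 15 genes, with 25 genes under 2 times.

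Without unlasered library 2, limma called 0 of the 31 genes, where 3.87% of all 17142 genes then tested were called. The signs of Slc2a3, Pgk1, Pgam1, Ldha, Pdk1 and Pdk3 changed, and the median log2 fold change was -0.02 for the 31 genes. At an unadjusted p under 0.05, 6 of the 31 genes passed limma's test, and 19.0% of all genes did. Of the 6, Gpi1, Gapdh and Ldhb had higher and Hk1, Pfkp and Eno2 lower values after laser injury. Without unlasered library 1, limma called 3 of the 31 genes lower (Hk1, Hk2 and Slc16a1), where 2.39% of all genes were called lower and 4.54% in either direction. The comparison of the glycolysis genes thus depended on which of the 3 unlasered libraries were used.

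**Figure D5:**
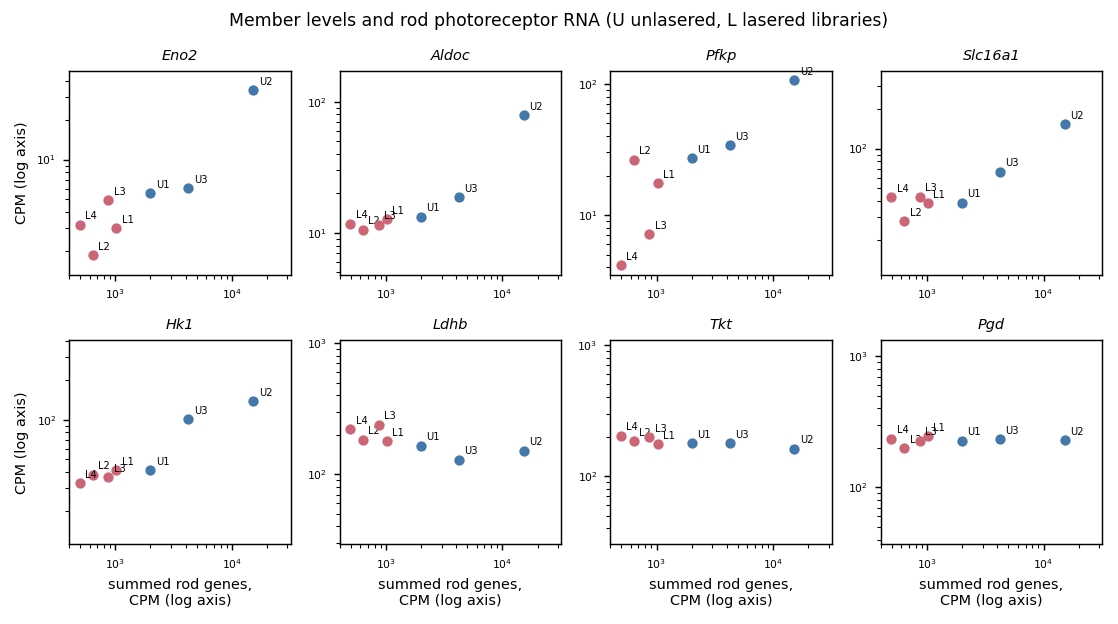
Level of 8 of the 31 genes in CPM (vertical axis, log scale) against the summed CPM of the 15 rod markers (horizontal axis, log scale), 1 point per library, blue for unlasered (U) and red for lasered (L). U2 lies at 15239 CPM of rod markers and is the highest point for Eno2, Aldoc, Pfkp, Slc16a1 and Hk1, whereas Pgd and Tkt stay level.

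The levels of other cell types' markers are given here beside these results, as whole lists. Cone markers summed to 492 to 1197 CPM in the unlasered and 486 to 536 CPM in the lasered libraries, with 0 of 8 tested called. Müller glia and astrocyte markers summed to 500.4 to 793 CPM in the unlasered and 178 to 485 CPM in the lasered libraries, with Gfap higher and Crb1 lower among 8 tested. Gfap had 0, 0 and 1.53 CPM in unlasered libraries 1, 2 and 3 and 2.18 to 3.87 CPM in the lasered ones. It thus reached the tested genes through the lasered libraries, and neither edgeR (adjusted p = 0.243) nor DESeq2 (adjusted p = 0.405) called it. Markers of other retinal neurons summed to 59.6 to 293 CPM in the unlasered and 38.6 to 65.4 CPM in the lasered libraries, with Syt1 lower among 8 tested. Like the rod markers, the cone and neuron sums were highest in unlasered library 2, and the Müller sum was not. Border macrophage markers summed to 2213 to 2759 CPM in the unlasered and 1377 to 1594 CPM in the lasered libraries, with Pf4 and Ms4a7 lower among 7 tested, and monocyte and neutrophil markers to 323 to 533 CPM in the unlasered and 442 to 543 CPM in the lasered libraries, with 0 of 6 called and Ly6g at or under 3 reads in every library. Markers of the pigment epithelium (23.5 to 25.7 CPM in the unlasered and 20.3 to 25.2 CPM in the lasered libraries, 0 of 2 called) and of endothelium and pericytes (16.7 to 59.9 CPM in the unlasered and 15.4 to 31.3 CPM in the lasered libraries, 0 of 4 called) were low, and of these Lrat, Cldn5 and Kcnj8 were at or under 3 reads in every library. Erythrocyte markers, none of which was abundant enough to be tested, reached 84.8 CPM in lasered library 1 and at most 1.42 CPM in the other libraries. Of 13 immediate early genes that dissociation can induce, Egr2 was higher and Nr4a1 and Ier3 were lower. Over all tested genes, limma called 3.86% higher and 3.07% lower. Without unlasered library 2, limma called no gene of the Müller, neuron and border macrophage lists, and Nr4a1 alone among the immediate early genes. The part of these other cell types in the levels of the 31 genes was not tested.

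Other genes of the same pathways were examined as whole lists, and limma's calls in them are to be read beside the 3.86% of all tested genes that were called higher and the 3.07% called lower. With 1 library left out, 7.31% of all genes were called in either direction without unlasered library 3, and 2.42%, 1.53%, 2.52% and 4.59% without lasered libraries 1, 2, 3 and 4. Of 42 tested genes of glycolysis, hexose transport, the pyruvate dehydrogenase complex and the pentose phosphate pathway outside the 31, Slc2a9 alone was called by limma. Slc2a9 (ENSMUSG00000005107, chr5:38349273-38503143), a transporter of urate and hexoses, had 7.25, 4.497 and 12.9 CPM in unlasered libraries 1, 2 and 3 and 25.1, 24.2, 28.7 and 16.3 CPM in lasered libraries 1 to 4. Every lasered value was above every unlasered one, and the log2 fold change was 1.49 ± 0.31 (adjusted p = 0.0285 by limma). The call was lost when any library other than unlasered library 3 or lasered library 4 was left out (adjusted p up to 0.0785 by limma). Other genes of this list were called in its place or beside it with single libraries left out: Pfkfb2 (-1.05, adjusted p = 0.0412 by limma) without unlasered library 1, H6pd (1.17, adjusted p = 0.0173) and Bsg (-0.56, adjusted p = 0.0222) without unlasered library 3, and Slc2a5 (-1.23, adjusted p = 0.0223) without lasered library 4.

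Of 23 tested genes of the citric acid cycle and linked enzymes, Me1 alone was called by limma. Me1 (ENSMUSG00000032418, chr9:86581371-86695953), the cytosolic malic enzyme that yields NADPH, had 6.902, 35.5 and 16.6 CPM without laser and 2.85, 0.512, 1.33 and 0.242 CPM after laser injury. Its row includes joint reads, its values were high in unlasered libraries 2 and 3 and low in all lasered libraries, and the log2 fold change was -3.08 ± 0.53 (adjusted p = 0.0152 by limma). Without unlasered library 2 it was -2.54 (adjusted p = 0.0322), and without lasered library 2 the call was lost (adjusted p = 0.0532 by limma). Without unlasered library 3 the list had 5 called genes: Me1, Mdh1 (-0.65), Idh3a (-0.83) and Sucla2 (-0.50) lower and Ogdh (0.61) higher, with adjusted p between 0.0199 and 0.0468 by limma.

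Of 22 tested hypoxia targets outside glycolysis, 2 were lower by limma, where 3.07% of all tested genes were. Egln3 (ENSMUSG00000035105, chr12:54178981-54203860), an oxygen sensor that hypoxia-inducible factors induce, had 11.7, 15.4 and 15.3 CPM in unlasered libraries 1, 2 and 3 and 5.64, 7.59, 6.84 and 7.62 CPM in lasered libraries 1 to 4. P4ha2 (ENSMUSG00000018906, chr11:54100095-54131665), a collagen prolyl hydroxylase subunit, had 4.21, 3.77 and 5.69 CPM without laser and 1.63, 1.94, 1.66 and 1.91 CPM after laser injury. The groups did not overlap for either gene, with log2 fold changes of -0.93 ± 0.18 and -0.98 ± 0.19 (adjusted p = 0.0234 and 0.0231 by limma). Both calls were lost without lasered library 1, 2 or 3, and that of Egln3 also without unlasered library 2 (adjusted p up to 0.0714 by limma). Without lasered library 3, Tfrc was called instead (-1.85, adjusted p = 0.0355 by limma).

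Of 29 tested regulators of glycolysis, 3 were lower by limma, where 3.07% of all tested genes were, and the count fell to 1 without unlasered library 2 or 3 or lasered library 1 or 4, to 2 without lasered library 3 and to 0 without lasered library 2. The factors most often linked to glycolytic activation were not called. Hif1a (ENSMUSG00000021109, chr12:73901375-73947530) had 18.5, 38.8 and 29.4 CPM in unlasered libraries 1, 2 and 3 and 22.95, 28.1, 25.2 and 18.8 CPM in lasered libraries 1 to 4, and Myc (ENSMUSG00000022346, chr15:61985391-61990374) had 33.9, 17.3 and 21.8 CPM without laser and 18.4, 19.9, 37.5 and 15.1 CPM after laser injury. The groups overlapped for both, with log2 fold changes of -0.23 ± 0.25 and -0.12 ± 0.32 (adjusted p = 0.648 and 0.8599 by limma).

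The 3 lower regulators were all of low level. Epas1 (ENSMUSG00000024140, chr17:86753700-86833410), which encodes HIF-2 alpha, had 5.38, 14.6 and 6.47 CPM in unlasered libraries 1, 2 and 3 and 1.65, 0.958, 1.55 and 0.0808 CPM in lasered libraries 1 to 4, with 3 reads in lasered library 4. Ppargc1a (ENSMUSG00000029167, chr5:51454250-51567726), a coactivator of mitochondrial genes whose row includes joint reads, had 2.25, 16.6 and 7.495 CPM without laser and 1.97, 1.02, 0.174 and 0.215 CPM after laser injury. Prkaa2 (ENSMUSG00000028518, chr4:105029874-105109890), a catalytic subunit of AMP-activated kinase, had 1.81, 2.98 and 3.25 CPM in the unlasered and 0.476, 0.334, 1.26 and 0.162 CPM in the lasered libraries. For each, every lasered value was below every unlasered one. The log2 fold changes were -2.22 ± 0.40, -2.20 ± 0.55 and -1.26 ± 0.27 (adjusted p = 0.0165, 0.0456 and 0.0304 by limma). The Epas1 call held without unlasered library 2 (-1.83, adjusted p = 0.0366 by limma) and was lost without lasered library 2 (adjusted p = 0.0557). Ppargc1a and Prkaa2 lost their calls without unlasered library 2 (-1.62 and -1.20, adjusted p = 0.106 and 0.0767 by limma) and without several other libraries. On all libraries, edgeR did not call Ppargc1a and Prkaa2 (adjusted p = 0.0601 and 0.0587), whereas DESeq2 called both (adjusted p = 0.000459 and 0.0131). The median log2 fold changes of the 4 lists were -0.01, 0.01, -0.11 and -0.12 in the order given, compared with -0.01 for all tested genes.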

How the data were processed

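RNA-seq of 7 libraries labelled Irf8 KO was analysed. Before deposit, the authors trimmed adapters (cutadapt), collapsed duplicate reads (FastUniq), aligned to the mouse genome (bowtie2; GRCm38 per the submitters' processing notes) and counted with HTSeq on gene annotation version 90. Libraries were made with a kit that does not mark strand. The deposited values are headed TPM, but are CPM: every value was a whole multiple of 1 step per library within 0.05 reads (100% whole), so length was not divided out. No column was left unused for lack of a sample (0 columns). In 4492 rows some or all of the reads are shared with an overlapping gene, and in 2335 of them all reads are.

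Groups came from the labels. log2(CPM + 1) was fitted without covariates (R 4.3.3, limma 3.58.1 with statmod 1.5.0; mean-variance trend, robust, two-sided) over genes reaching 1 CPM in 3 or more libraries, with Benjamini-Hochberg adjustment over all 17496 genes and calls at an adjusted p under 0.05. Fold changes on this scale understate those of low genes. Recovered reads were tested with edgeR 4.0.16 and DESeq2 1.42.0 as alternatives, where an adjusted p that DESeq2 left blank stayed out of the counts. On simulated data of this design, the test called 96.3% of 191 genes with a simulated 2-fold change and 100% of 195 genes with a 4-fold change, with 5.64% and 3.94% false calls over 17596 and 17628 genes. The simulation gave all genes the same dispersion in both groups, and no library in it stood apart. These rates therefore do not hold for genes with a wider spread, such as Pfkp, which limma did not call at -1.97.

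Other alternatives were a pseudocount of 0.1, no filter, a mean of at least 10 reads, each library left out, the replicate block, median-of-ratios and TMM scaling, thinning to 20427558 reads, an unadjusted p, and the study's thresholds (log2 fold change over 1.5, mean of at least 100). Adding pseudogene rows was chosen after seeing the data. Coordinates and exonic lengths (the union of a gene's exons) come from GENCODE M21 (GRCm38), which 99.1% of rows matched. Pseudogenes were matched with blastn 2.17.0, and promoters come from RefSeq. Other steps used Python 3.11.15. Values per library are given for the 12 members with the smallest p, for families of isozymes and for Hk2, Pfkfb3, Pkm, Pdk1 and G6pdx, with the called genes of the 4 smallest p in each added list, Hif1a and Myc. Gapdh, and list genes called only with 1 library left out, fall outside this rule and were chosen after their values were seen. The members, lists and rules were chosen with earlier results of these data known. A further rod marker is not reported here. The floor covers counting error only.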

Additional observations from a re-analysis of the deposited data

Results flagged for a closer look

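Among the 40 groups of 4 lasered libraries tested for a library that stands apart, 1 was found. For Pfkfb4, lasered library 1 was the lowest with 129.62 CPM, and the other 3 lay between 153 and 158 CPM. The gap to the nearest value was 0.831 of the whole range, just above the critical value at the 95% level, and chance alone marks about 1 in 20 groups.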

How the results depend on the processing

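Of 762 log2 fold changes computed for 45 named genes under 17 alternatives, 54 changed sign, 42 lost and 16 gained significance. The count of called members stayed at 0 higher throughout, except that 1 passed at an unadjusted p under 0.05, and was 0 lower except with edgeR (1), DESeq2 (3), an unadjusted p (6) and leave-one-out (0 to 3, with 3 without unlasered library 1). Counts over all genes, 676 higher and 537 lower, were 150 to 815 higher and 114 to 433 lower with single libraries left out (fewest without lasered library 2), 212 and 173 with no filter on low values, 1040 higher with TMM scaling, 1177 and 1141 with DESeq2, 1932 and 2031 at an unadjusted p and 19 and 28 at the study's thresholds with an adjusted p. With the replicate number as a block, limma called 2 higher and 1 lower and no member. Same-numbered libraries did not deviate together (r = -0.183, -0.126 and -0.0234 across genes), so the numbers are not treated as a pairing, and the 7 called genes of the added lists (Slc2a9, Me1, Egln3, P4ha2, Epas1, Ppargc1a and Prkaa2) lost their calls under the block (adjusted p 0.089 to 0.176). Lasered library 4 has no unlasered library of its number, so under the block it did not enter the fold changes. These equalled the ones without lasered library 4, such as 1.65 for Slc2a9. The block also left fewer residual degrees of freedom, and the part of either in the lost calls was not tested.

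Not divided by exonic length, the unlasered and lasered shares were 45.3% and 44.5% for Slc2a1, 36.2% and 24.1% for Hk1, 16.2% and 19.0% for Pfkfb3, 65.2% and 57.0% for Ldha and 78.6% and 80.4% for Pdk1, with 76.6% for Pfkl in unlasered and 96.9% for Aldoa in lasered libraries.

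With single libraries left out, the log2 fold change changed sign for Eno1 (-0.12 to 0.27), Gapdh (-0.0213 to 0.39), Hif1a (-0.51 to 0.0115), Hk3 (-0.20 to 0.0245), Ldha (-0.28 to 0.34), Myc (-0.38 to 0.14), Pdha1 (-0.13 to 0.024), Pdk1 (-0.11 to 0.25), Pdk3 (-0.13 to 0.0537), Pfkfb4 (-0.10 to 0.0987), Pfkl (-0.13 to 0.26), Pgam1 (-0.49 to 0.11), Pgd (-0.0633 to 0.0382), Pgk1 (-0.46 to 0.0361), Slc2a1 (-0.22 to 0.24), Slc2a3 (-0.0893 to 0.30) and Tpi1 (-0.11 to 0.35). Signs also changed under other settings, for Hk3 (0.0183), Pfkfb4 (0.10), Ldha (0.0508), Slc16a3 (0.0291), Pdk3 (0.0904), Pdha1 (0.093), G6pdx (0.0347) and Pgd (0.10) under TMM scaling, for Pfkfb4 (0.0625), Ldha (0.00949), Pdk3 (0.0502), Pdha1 (0.0522) and Pgd (0.0592) under median-of-ratios scaling, for Ldha (0.00209), Pdk3 (0.0153), Pdha1 (0.0103) and Myc (0.0357) under the replicate block, and for Slc2a1 (-0.00987) and Eno1 (-0.025) under edgeR, for Slc2a1 (-0.0106) and Eno1 (-0.0258) under DESeq2, for Slc2a1 (-0.00169) under thinning to the smallest library. All but Hif1a and Myc are members, and none of these estimates was called. Depth limits the low regulators: at 3 reads, the floor, Epas1 in lasered library 4 could not be told from 0. Pools of mice are the replicates, 3 against 4.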
